A study of Mus musculus with 4 samples.

Results

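The uncoupling proteins and a set of brown and white fat markers were followed in mouse gastrocnemius, a calf muscle, with and without muscle overexpression of the nuclear receptor PPARbeta. The set holds 10 genes, chosen by symbol: Ucp1, Ucp2, Ucp3 and Cidea for uncoupling and brown fat, and Adipoq, Retn, Cfd, Lep, Cidec and Plin1 for white fat. In the probe set annotation used here, 8 probe sets carried exactly 1 of these symbols and covered 7 of the genes, out of 20380 probe sets and 12393 genes with 1 symbol. Ucp2, Cfd and Plin1 had no such probe set and were not analysed here. Of the 4 arrays, 2 hold RNA of MCK-PPARb transgenic mice and 2 hold RNA of non-transgenic littermates, all aged 6 weeks. The transgene is named for the promoter of muscle creatine kinase, which is active in muscle fibres and not in fat cells. The labels used here give no strain, sex or transgenic line. Replicates are described there as biological, but no array is tied to an animal, so the spread between these arrays may be technical. Errors draw on that spread and on the spread of other probe sets at similar signal.

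Uncoupling proteins are carriers of the inner mitochondrial membrane. UCP1 lets protons flow back without ATP synthesis, which makes brown fat produce heat, and its transcript defines that tissue. UCP3 is a related carrier made mainly in skeletal muscle, where its transcript follows the supply of fatty acids, and PPAR receptors are known to act on both genes. White fat cells secrete adiponectin, resistin, leptin and complement factor D, and coat their fat droplets with perilipin 1 and CIDEC. Muscle samples usually carry some fat cells between the fibres, so these transcripts can be read in whole muscle.

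The 4 arrays had been scaled alike, and log2 signals over the brighter part of the probe sets correlated at 0.955 within the MCK-PPARb group, 0.946 within the non-transgenic group and 0.924 to 0.946 between groups. Ppard, which encodes PPARbeta, had signals of 126049 and 98797 on the MCK-PPARb arrays, against 2169 and 2825 on the non-transgenic arrays. That is 45.1-fold higher (adjusted p = 0.000187 with limma) and fits the labels. Non-transgenic replicate 1 stood apart at the top of the scale, with 4.20% of its total signal in the 10 brightest probe sets (2.36% to 2.78% elsewhere). A signal near or under 444 units, the median level of all probe sets, is called dim below. Replicate arrays differed by a median of 0.98 (MCK-PPARb) and 0.87 (non-transgenic) on the log2 scale for dim probe sets, against 0.26 and 0.30 for brighter ones.

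Ucp1 and Cidea, the brown fat genes, were higher in MCK-PPARb muscle, both from dim signals, while Ucp3, the uncoupling protein of muscle, did not separate the groups. Adipoq and Retn were 2.04-fold and 2.03-fold higher, at brighter signals. Lep and Cidec were dim; Lep read lower in MCK-PPARb muscle, and Cidec had no direction. The genes were chosen with these values known, so the differences are given as a description, without a test.

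**Figure D1:**
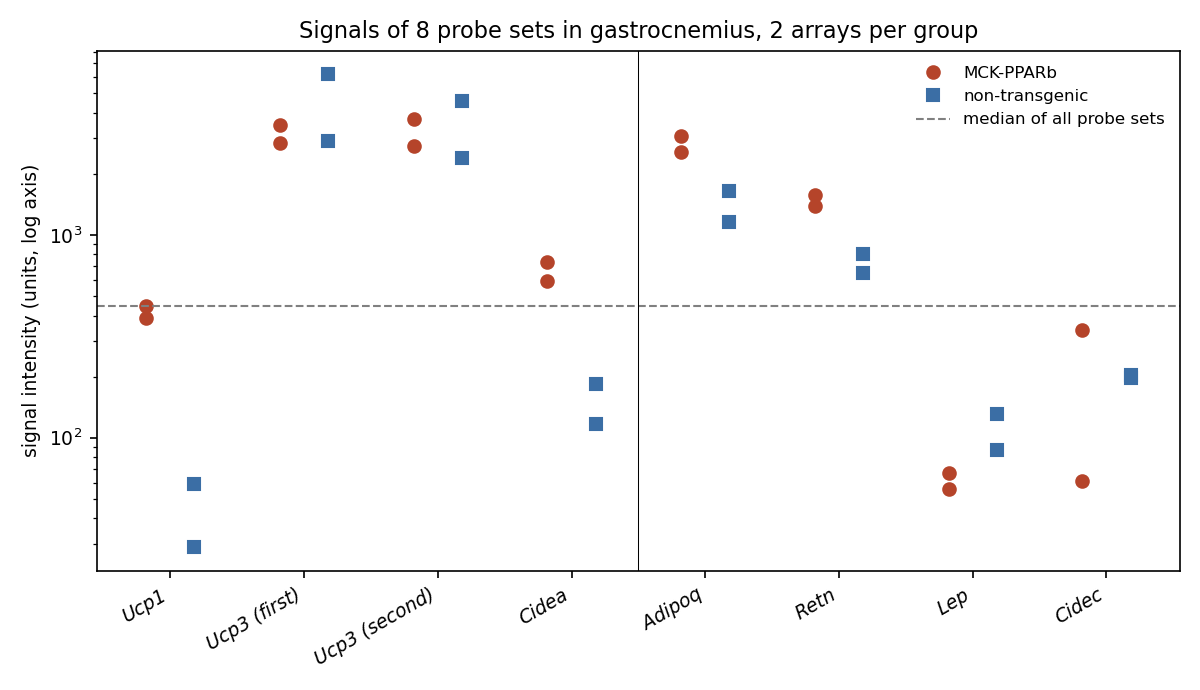
Signal intensity on a log axis for the 8 probe sets on each array, with MCK-PPARb arrays as circles to the left of non-transgenic arrays as squares, and uncoupling and brown fat genes left of the vertical line. The dashed line is the median level of all probe sets, 444 units. Ucp1, Cidea, Adipoq and Retn have no overlap and higher MCK-PPARb signals, and Lep has no overlap and lower ones.

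Ucp1 read 391 and 447 on the MCK-PPARb arrays and 59.1 and 28.9 on the non-transgenic arrays. The groups did not overlap, and both MCK-PPARb signals lay around the median level of all probe sets. The log2 difference was 3.34 ± 0.88 (SE, n = 2 per group), 10.1-fold on the log2 means. The size rests on the dim non-transgenic signals, whose replicates differed by 1.03 on the log2 scale. The MCK-PPARb replicates of Ucp1 differed by 0.19. Over probe sets at this level, replicate arrays differed by a median of 1.12 (MCK-PPARb) and 0.96 (non-transgenic). With all signals below 444 units raised to that level, the difference was 0.0047, and with a pseudocount of 33.9 units it was 2.56. The size of the Ucp1 difference is therefore not fixed by these arrays.

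Cidea encodes a lipid droplet protein that is abundant in mouse brown fat. Its signals were 593 and 737 in MCK-PPARb muscle and 183 and 117 in non-transgenic muscle. All MCK-PPARb signals lay above 444 units and all non-transgenic signals below it, with no overlap. The log2 difference was 2.18 ± 0.57 (SE, n = 2 per group), or 4.52-fold, and 0.57 with signals raised to 444 units. At the signal level of Cidea, replicate arrays differed by a median of 0.62 (MCK-PPARb) and 0.53 (non-transgenic).

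Ucp3 has 2 probe sets, both bright. The first read 3463 and 2843 in MCK-PPARb muscle and 6175 and 2911 in non-transgenic muscle, and the second read 3741 and 2753 in MCK-PPARb muscle and 4560 and 2402 in non-transgenic muscle. In both, the groups overlapped, and non-transgenic replicate 1 was the highest array. The log2 differences were -0.43 ± 0.35 for the first and -0.044 ± 0.33 for the second (SE, n = 2 per group). Without non-transgenic replicate 1 the first turned to 0.11, and without non-transgenic replicate 2 it was -0.98. The gap between the non-transgenic replicates, 1.09 for the first probe set, was larger than the difference between groups.

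Over the 4 arrays, the genes whose centred log2 signals lay nearest to those of Ucp3 were Ckm, Tspan6, Tnnc2, Hoxa11 and Acta1, at Euclidean distances of 0.104 to 0.139 among 6840 genes. Ckm, the muscle creatine kinase, read 152102 and 126273 in MCK-PPARb muscle and 258580 and 118251 in non-transgenic muscle. These genes are likewise highest on non-transgenic replicate 1. With 4 arrays, 261 genes lay within a distance of 0.5, so the likeness is loose. The summed signal of 6 muscle fibre markers was 879899 and 769474 in MCK-PPARb muscle and 1416320 and 759100 in non-transgenic muscle, and their part in the Ucp3 values was not tested.

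PPAR receptors bind DNA as pairs with RXR at direct repeats of the hexamer AGGTCA. The 250 bases before the start of 4 genes are shown because their groups differ in behaviour on the arrays: Ucp1, Adipoq and Retn were higher in MCK-PPARb muscle, and Ucp3 was not. They are RefSeq sequences of build GRCm38.p6, all on the plus strand, 5′ to 3′, with capitals marking each AGGTCA hexamer on either strand.
Ucp1, chr8:83290098-83290347: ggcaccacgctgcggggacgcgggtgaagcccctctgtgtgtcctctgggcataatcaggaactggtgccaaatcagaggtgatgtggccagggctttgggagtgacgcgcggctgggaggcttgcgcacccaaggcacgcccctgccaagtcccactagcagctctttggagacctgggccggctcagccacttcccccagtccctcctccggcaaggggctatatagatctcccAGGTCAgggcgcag
Ucp3, chr7:100472741-100472990: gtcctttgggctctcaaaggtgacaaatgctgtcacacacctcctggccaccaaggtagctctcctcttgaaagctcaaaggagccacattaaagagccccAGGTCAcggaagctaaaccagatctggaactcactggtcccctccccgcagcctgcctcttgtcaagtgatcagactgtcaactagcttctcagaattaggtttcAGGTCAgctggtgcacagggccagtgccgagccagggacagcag
Adipoq, chr16:23146286-23146535: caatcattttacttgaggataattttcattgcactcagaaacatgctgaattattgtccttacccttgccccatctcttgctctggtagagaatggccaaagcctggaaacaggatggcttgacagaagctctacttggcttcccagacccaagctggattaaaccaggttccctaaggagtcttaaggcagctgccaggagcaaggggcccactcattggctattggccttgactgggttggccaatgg
Retn, chr8:3655520-3655769: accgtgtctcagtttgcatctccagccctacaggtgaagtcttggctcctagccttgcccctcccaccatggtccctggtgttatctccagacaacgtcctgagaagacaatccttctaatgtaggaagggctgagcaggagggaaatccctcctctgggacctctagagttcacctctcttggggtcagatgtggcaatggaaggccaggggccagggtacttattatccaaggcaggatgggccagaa

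Counted from the gene start, the Ucp1 window holds 1 hexamer, at position -14, and the Ucp3 window holds 2, at positions -149 and -44. The Adipoq and Retn windows hold 0. Across 32851 promoter windows of the same length, 14% hold AGGTCA or its reverse complement TGACCT. The direct repeat, meaning 2 copies of AGGTCA with any 1 base between them, was found on neither strand in the 10 windows of the 9 genes matched in the promoter table, and 0.0335% of all windows hold it. The TATA motif TATAAA was in none of the 10 either, against 12.4% of all windows. The direct repeat holds the hexamer, so these searches overlap. Only exact letters were matched, so repeats with a changed letter were not counted. In the Ucp3 window, for example, the letters aggtttc stand directly before the hexamer at -44. The absence of the exact repeat therefore does not show that looser repeats are absent. A match is a description of letters, and distal elements lie outside these windows.

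Adipoq encodes adiponectin, the most abundant hormone of fat cells. It read 2567 and 3076 in MCK-PPARb muscle and 1151 and 1648 in non-transgenic muscle. The groups did not overlap, and the log2 difference was 1.03 ± 0.26 (SE, n = 2 per group), or 2.04-fold. It lay between 0.77 and 1.29 when each array was left out in turn. This is larger than the gap between replicates, 0.26 in MCK-PPARb and 0.52 in non-transgenic muscle.

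Retn encodes resistin, a hormone that fat cells secrete in mice. It read 1565 and 1387 in MCK-PPARb muscle and 805 and 652 in non-transgenic muscle. Again the groups did not overlap, and Retn was 1.02 ± 0.27 higher on the log2 scale (SE, n = 2 per group), or 2.03-fold. The range with each array left out was 0.87 to 1.18. Both hormones kept their size when signals were raised to 444 units, since every signal lies above that level.

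Lep encodes leptin, the satiety hormone of fat cells. It read 55.7 and 67.2 in MCK-PPARb muscle and 131 and 86.8 in non-transgenic muscle, so the groups did not overlap and the direction was opposite to that of Adipoq and Retn. The log2 difference was -0.80 ± 0.997 (SE, n = 2 per group). All 4 signals were dim. Over probe sets at this level, replicate arrays differed by a median of 1.37 (MCK-PPARb) and 1.30 (non-transgenic), more than the difference between groups. The replicates of Lep itself differed by 0.27 and 0.59, less than that difference.

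Cidec encodes the protein that fuses fat droplets into the large droplet of a white fat cell. It read 61.3 and 340 in MCK-PPARb muscle and 197 and 203 in non-transgenic muscle. The MCK-PPARb replicates lay on either side of both non-transgenic arrays. The log2 difference was -0.47 ± 0.96 (SE, n = 2 per group), and it was 0.77 without MCK-PPARb replicate 1 and -1.70 without MCK-PPARb replicate 2. These data give Cidec no direction.

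**Figure D2:**
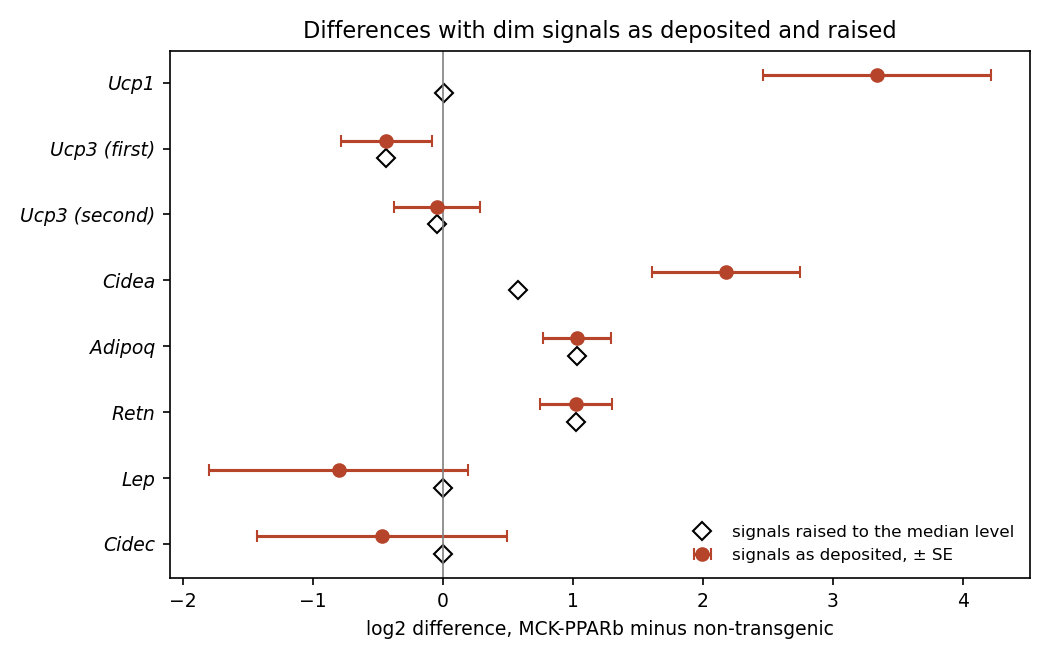
Log2 difference of each probe set, MCK-PPARb minus non-transgenic, with bars of ± 1 SE (n = 2 per group), and as open diamonds the same with every signal below 444 units raised to that level. Ucp1 moves to 0.0047 and Cidea to 0.57 when dim signals are raised, while Adipoq and Retn stay at 1.03 and 1.02.

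Set side by side, the uncoupling and brown fat genes had a median log2 difference of 2.18 (3 genes, -0.43 to 3.34) and the white fat genes one of 0.28 (4 genes, -0.80 to 1.03). The median over all 12393 measured genes was 0.046. The white fat median was 0.85 without MCK-PPARb replicate 1 and -0.020 without MCK-PPARb replicate 2. With dim signals raised to 444 units the order of the medians turned, to 0.0047 for the uncoupling and brown fat genes and 0.51 for the white fat genes. The classes are small and mixed, since Ucp3 belongs to muscle as well, and Lep and Cidec are at levels where replicates scatter.

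Of the 8 probe sets, 4 were bright enough to enter the fit over 11313 probe sets, those of Ucp3, Adipoq and Retn. Of these 4, 0 were called with limma, against a background of 0.601% over all kept probe sets (0.336% in the higher and 0.265% in the lower direction), and 2 had an unadjusted p under 0.05, as did 10.6% of all. In the fit without a filter, 0 of 8 were called, against 0.331% of all probe sets, and 4 had an unadjusted p under 0.05, against 7.61%. The groups did not overlap for 5 of the 8 probe sets, 4 higher and 1 lower, while 36.2% of all probe sets did not overlap, 20.3% higher and 16% lower. Among dim probe sets alone the share was 31.4%. Since this contrast was known when the genes were chosen, nothing is read from these counts. In a whole muscle, more cells of a type and more RNA per cell cannot be told apart.

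Other genes of the brown fat programme were read from a list of 23, of which 17 were measured and 8 were bright. Of the 8, none rose or fell with limma, and 0 had an unadjusted p under 0.05, where 10.9% of all kept genes did. Called genes were 0.409% of all kept genes in the higher and 0.322% in the lower direction. The median log2 difference of the 17 genes was 0.35, and that of the 8 bright genes 0.14. Groups did not overlap for 9 higher and 2 lower of the 17, against 20.9% and 17.2% of all measured genes. With quantile normalization these were 7 and 2, and with median centring 6 and 3.

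Among the bright genes of the programme, Ppargc1a, the coactivator PGC-1alpha that drives mitochondrial genes, read 2541 and 2224 in MCK-PPARb muscle and 2495 and 2450 in non-transgenic muscle. Its log2 difference was -0.057 ± 0.21, and 2 of its other 4 kept probe sets had the opposite sign, with overlap. Another was at -0.42 ± 0.25, lower without overlap. Ppargc1b, a relative of Ppargc1a, was at 0.35 ± 0.20 and Cox7a1, a cytochrome oxidase subunit of muscle and brown fat, at -0.41 ± 0.19 (SE, n = 2 per group). The transcription factor genes Tbx1 and Ebf2 were at 0.58 ± 0.36 and 0.45 ± 0.36. None of these passed, with adjusted p of 0.499 to 0.953 in limma.

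Among brown adipocyte markers, 7 of 8 were measured, and in all 7 the groups did not overlap and MCK-PPARb was higher, as in 20.9% of all measured genes. With quantile normalization or median centring this held for 5 of the 7. Besides Ucp1 and Cidea the 7 markers are Cox8b, Dio2, Ebf2, Elovl3 and Zic1. The latter are also on the list of the brown fat programme, so the 2 counts share genes. Since Ucp1 and Cidea were chosen with this contrast known, nothing is read from the count. Cox8b, a cytochrome oxidase subunit that muscle also makes, read 54810 and 59137 in MCK-PPARb muscle and 53511 and 51345 in non-transgenic muscle, 0.12 apart on the log2 scale. Elovl3, a fatty acid elongase of brown fat, read 265 and 271 in MCK-PPARb muscle and 94.5 and 208 in non-transgenic muscle. Zic1, a transcription factor of classical brown fat, read 505 and 205 in MCK-PPARb muscle and 180 and 193 in non-transgenic muscle. Dio2, which activates thyroid hormone, read 672 and 421 in MCK-PPARb muscle and 329 and 387 in non-transgenic muscle, and in its other 2 probe sets the groups overlapped. Apart from Cox8b and Ebf2 these markers are dim, and none was called. The summed signal of the 7, nearly all of it Cox8b, was 58106 and 61799 in MCK-PPARb muscle and 54826 and 52853 in non-transgenic muscle.

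**Figure D3:**
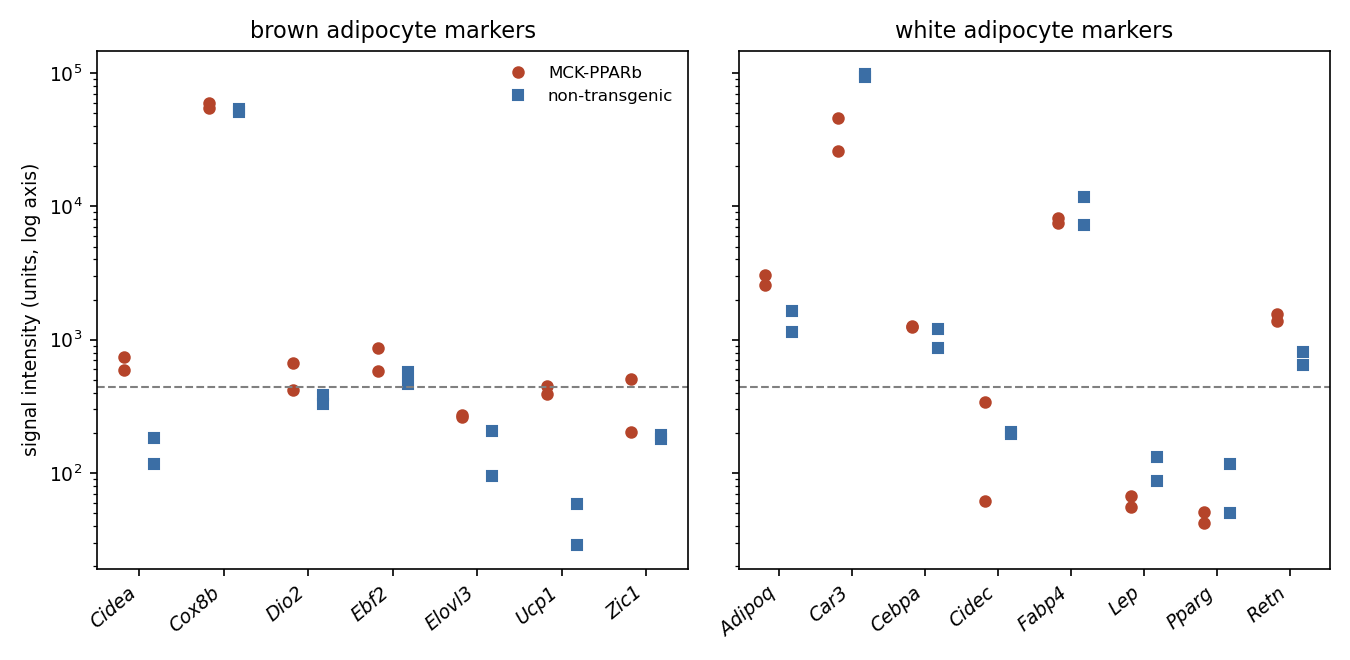
Signal intensity on a log axis for the measured brown (left) and white (right) adipocyte markers, with MCK-PPARb arrays as circles to the left of non-transgenic arrays as squares. The dashed line is the median level of all probe sets. The brown markers other than Cox8b lie near or below that line, and among the white markers 3 are higher and 2 lower without overlap.

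Of 10 white adipocyte markers, 8 were measured, and the groups did not overlap for 3 higher (Adipoq, Retn, Cebpa) and 2 lower (Lep, Car3), where 20.9% and 17.2% of all measured genes did so. With quantile normalization these were 3 and 3, and with median centring 2 and 3. Adipoq, Retn and Lep were likewise chosen with this contrast known, so nothing is read from these counts. Fabp4, the fatty acid binding protein of fat cells that endothelium also makes, read 8234 and 7521 in MCK-PPARb muscle and 7277 and 11715 in non-transgenic muscle. Its log2 difference was -0.23 ± 0.25, with 2 other kept probe sets of the opposite sign (adjusted p = 0.812 with limma). Pparg, the main regulator of fat cell formation, was dim, at 51.0 and 42.5 in MCK-PPARb muscle and 50.1 and 118 in non-transgenic muscle. Cebpa, its partner, read 1236 and 1268 in MCK-PPARb muscle and 1194 and 863 in non-transgenic muscle. The summed signal of the markers without Car3, a carbonic anhydrase that muscle makes in quantity, was 13769 and 13702 in MCK-PPARb muscle and 10805 and 15286 in non-transgenic muscle. These sums overlap between the groups, but on every array most of the sum is Fabp4, whose own signals overlap. The overlap is therefore no measure of the other markers. No marker was listed at 0. The part of fat cells in the Adipoq and Retn values was not tested.

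Other genes of fat cells were read from a list of 30, of which 27 were measured and 20 were bright. Of these 20, 1 rose, 0 fell and 19 did not pass with limma, where 0.409% of all kept genes rose and 0.322% fell. With an unadjusted p under 0.05, 7 were higher and 1 lower, against 5.31% and 5.57% of all kept genes. The gene that rose was Scd1, the desaturase that makes monounsaturated fatty acids, with 14480 and 11719 in MCK-PPARb muscle and 4092 and 5233 in non-transgenic muscle (log2 1.49 ± 0.21, adjusted p = 0.0348). It passed neither without MCK-PPARb replicate 1 nor without MCK-PPARb replicate 2. Fasn, the fatty acid synthase, was at 1.60 ± 0.36 and Dgat2, which completes triglycerides, at 0.96 ± 0.26, while Car3 was at -1.46 ± 0.28. Their adjusted p were 0.144, 0.217 and 0.0939. The median log2 difference was 0.26 over all 27 genes and 0.51 over the 20 bright ones.

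The genes nearest to Adipoq over the 4 arrays, by the same distance as for Ucp3, were Itgb4, Ampd3, Tnnc1, Acadl and Phlda1, at 0.126 to 0.192 among 6840 genes. Tnnc1, the slow muscle troponin C, read 16570 and 21121 in MCK-PPARb muscle and 7334 and 9975 in non-transgenic muscle. Acadl, an enzyme of fatty acid oxidation, read 22753 and 25297 in MCK-PPARb muscle and 10774 and 15381 in non-transgenic muscle. In all, 153 genes lay within a distance of 0.5.

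Receptors and signalling genes of the fat hormones came from a list of 12, with 10 measured and 8 bright. None was called with limma, and 1 higher and 1 lower had an unadjusted p under 0.05, against 5.31% and 5.57% of all kept genes. Adipor1, the main adiponectin receptor of muscle, read 19100 and 19153 in MCK-PPARb muscle and 19532 and 20874 in non-transgenic muscle (log2 -0.078 ± 0.17). Of its other probe sets, 1 had the opposite sign, at 0.093 ± 0.22. The remaining one was at -0.55 ± 0.23, lower without overlap (adjusted p = 0.458 with limma). Adipor2 was at 0.0056 ± 0.21. Lepr, the leptin receptor, was dim, at 106 and 363 in MCK-PPARb muscle and 388 and 38.5 in non-transgenic muscle. Among the signalling genes, Socs3, a feedback inhibitor induced by leptin and other cytokines, was at 1.91 ± 0.51, Jak2 at -0.69 ± 0.28, Stat3 at 0.58 ± 0.31 and Tlr4 at 0.43 ± 0.50. Their adjusted p ran from 0.220 to 0.826. The median was 0.20 over the 10 genes and -0.019 over the 8 bright ones.

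Complement factor D acts in the alternative complement pathway, whose other genes formed a list of 9 with 7 measured and 3 bright. None was called with limma, and 1 had an unadjusted p under 0.05, Cd55, which shields cells from complement. It read 444 and 319 in MCK-PPARb muscle and 563 and 1042 in non-transgenic muscle (log2 -1.02 ± 0.42, adjusted p = 0.452). Cd59a, another shield, was at -0.39 ± 0.26, and C3ar1, a receptor for a complement fragment, at 0.19 ± 0.37.

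Proteins of the lipid droplet, where CIDEA, CIDEC and perilipin 1 act, formed a list of 14 with 13 measured and 11 bright. None was called with limma, and 1 had an unadjusted p under 0.05. That gene, G0s2, an inhibitor of the triglyceride lipase ATGL, read 1673 and 4450 in MCK-PPARb muscle and 1070 and 1571 in non-transgenic muscle (log2 1.07 ± 0.45, adjusted p = 0.462). Plin5, the perilipin of oxidative muscle, was at 0.63 ± 0.33, Plin4 at 0.44 ± 0.19 and Lipe, hormone-sensitive lipase, at 0.76 ± 0.40. Over the 13 measured genes the groups did not overlap for 5 higher and 0 lower, where 20.9% and 17.2% of all measured genes did so. The median of the 13 genes was 0.16.

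Carriers related to the uncoupling proteins formed a list of 8, with 7 measured and 6 bright. By the brightest probe set of each gene, none was called with limma or had an unadjusted p under 0.05. Slc25a4, the ADP/ATP carrier of muscle, which also conducts protons, read 103078 and 101598 in MCK-PPARb muscle and 161182 and 113073 in non-transgenic muscle (log2 -0.40 ± 0.23, adjusted p = 0.603). All 4 probe sets of Slc25a4 were lower in MCK-PPARb muscle. A dimmer one read 32937 and 33037 in MCK-PPARb muscle and 60563 and 56414 in non-transgenic muscle (log2 -0.83 ± 0.18). Another was at -0.93 ± 0.33. Their unadjusted p with limma were 0.00198 and 0.0234, and their adjusted p 0.122 and 0.351. Slc25a30, a close relative of the uncoupling proteins, was at -0.53 ± 0.28. The oxoglutarate carrier Slc25a11 was at -0.34 ± 0.18, and the dicarboxylate carrier Slc25a10 at 0.85 ± 0.37. The median of the 7 was -0.34, and -0.19 with quantile normalization.

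Regulators of the Ucp genes, meaning PPAR and thyroid hormone receptors, their RXR partners and cofactors, formed a list of 19 with 18 measured and 14 bright. Besides Ppard itself none was called with limma. Ppara, which encodes PPARalpha, read 1327 and 1244 in MCK-PPARb muscle and 925 and 462 in non-transgenic muscle (log2 0.98 ± 0.38, adjusted p = 0.411). Thra, a thyroid hormone receptor gene, was at 0.51 ± 0.22, and Rxrg, the RXR gene of muscle, at -0.58 ± 0.25. The median of the 18 genes was -0.021.

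PPAR target genes of muscle give the setting in which Ucp3 was read, since it is usually counted among them. Of 18 listed, 16 were measured and 13 were bright. None was called with limma. Of the 13, 6 were higher and 0 lower with an unadjusted p under 0.05, where 5.31% and 5.57% of all kept genes were, and the median of the 16 was 0.69. Pdk4, which restrains pyruvate dehydrogenase, was at 1.02 ± 0.18, Fabp3, the fatty acid binding protein of muscle, at 0.98 ± 0.18, Cat, catalase, at 1.08 ± 0.21 and Hadha, an enzyme of beta-oxidation, at 0.76 ± 0.17 (SE, n = 2 per group). Their adjusted p ran from 0.0699 to 0.143. These 4 genes were named for their small p. The carnitine carriers Slc25a20 and Slc22a5, Cpt1a, which makes acylcarnitine, and Acadm, an acyl-CoA dehydrogenase, were at -0.043, 0.039, 0.12 and 0.15. These are among the smallest differences of the list. The largest was that of Angptl4, a dim gene, at 2.73 ± 0.72, while its dimmer probe set was at -2.84 ± 1.38. Over the 16 genes the groups did not overlap for 8 higher and 0 lower, against 20.9% and 17.2% of all measured genes. The Ucp3 probe sets were at -0.43 and -0.044. Whether Ucp3 differs from the list was not tested.

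Other cycles that use energy to make heat formed a list of 10, all measured and bright, of which 1 rose, 1 fell and 8 did not pass with limma, against 0.409% and 0.322% of all kept genes that rose and fell. Sln, which encodes sarcolipin, uncouples the calcium pump of the sarcoplasmic reticulum from calcium transport. It read 76835 and 82798 in MCK-PPARb muscle and 268 and 737 in non-transgenic muscle (log2 7.49 ± 0.42, adjusted p = 0.000412), a size that rests on non-transgenic signals near the dim level. Gpd2, the mitochondrial arm of the glycerol phosphate shuttle, read 1058 and 983 in MCK-PPARb muscle and 4692 and 4801 in non-transgenic muscle (log2 -2.22 ± 0.21, adjusted p = 0.00705). Its cytosolic partner Gpd1 was at -0.95 ± 0.18, and Gatm, which makes the creatine precursor, at 1.71 ± 0.33, both with an adjusted p of 0.0939. The median of the 10 was -0.18, and 0.025 with quantile normalization.

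**Figure D4:**
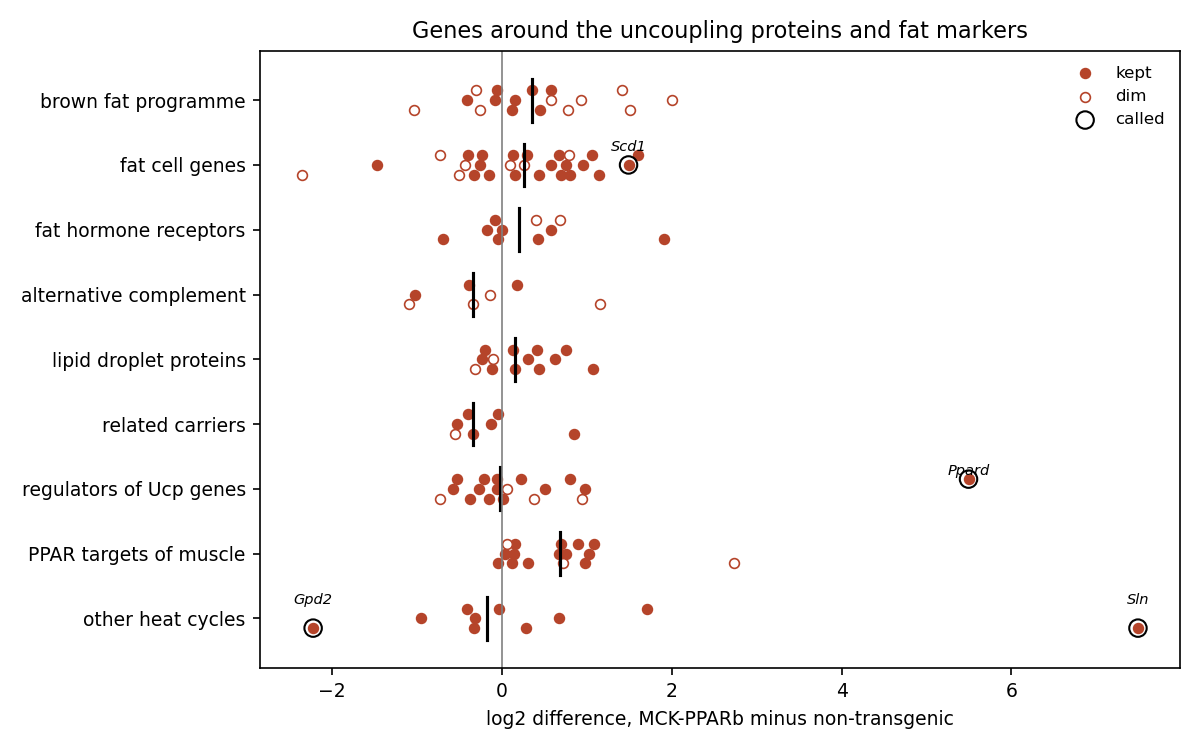
Log2 difference, MCK-PPARb minus non-transgenic, of each measured gene in the 9 lists, filled where the probe set was kept and open where it was dim, with the median of a list as a vertical bar. Black rings mark the 4 genes called with limma, Scd1, Ppard, Sln and Gpd2, and the PPAR targets of muscle have the highest median, 0.69.

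Markers of other cell types were read in the same libraries. Schwann cell markers were higher in MCK-PPARb muscle for 3 of 3 measured genes of 5 listed, with no overlap between groups, as for 20.9% of all measured genes. Their summed signal was 29780 and 33746 in MCK-PPARb muscle and 17637 and 19527 in non-transgenic muscle. Endothelial markers (5 of 5 measured) summed to 9323 and 9210 in MCK-PPARb muscle and 8828 and 10445 in non-transgenic muscle. Fibroblast markers (5 of 5) summed to 142822 and 124195 in MCK-PPARb muscle and 145398 and 129894 in non-transgenic muscle. The endothelial and fibroblast sums overlapped. Macrophage markers (5 of 5) summed to 6866 and 5996 in MCK-PPARb muscle and 5710 and 5676 in non-transgenic muscle. The Schwann cell and macrophage sums did not overlap and were higher in MCK-PPARb muscle, as Adipoq and Retn were. For single macrophage markers the groups did not overlap for 2 higher and 0 lower, against 20.9% and 17.2% of all measured genes. Of the 5, Adgre1 was at 0.83 ± 0.26, while Csf1r, Mrc1 and Cd68 overlapped, at -0.016, -0.21 and 0.12. The sums of smooth muscle, red cell and lymphocyte markers overlapped. The part of these cell types in the values of Adipoq, Retn, Ucp1 and Cidea was not tested.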

How the data were processed

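Gastrocnemius RNA was measured on 4 Affymetrix arrays, 2 per group. The authors deposited linear signal intensities, a single value for each probe set on each array. Per the submitters' processing notes the tools were MAS5 and GCOS, and no version or setting was found there. Each array had a mean signal of 1501 after trimming 2% of probe sets at each end, and no value was 0 or below. Detection calls were not used here.

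Of 22690 probe sets, 64 controls were left out. Of the other 22626, 20380 had 1 symbol in the platform annotation, 691 had several and 1555 are left unnamed. The symbol was brought up to date by gene number for 20351 probe sets with the RefSeq table of GRCm38.p6. Probe sets with several symbols name no gene here.

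Signals went to log2 with no pseudocount. Probe sets with a mean log2 signal above the median (444 units) were kept, 11313 in all. They were fitted with limma 3.58.1 in R 4.3.3 (lmFit, eBayes with an intensity trend, two-sided, Benjamini-Hochberg over all kept probe sets, called at adjusted p under 0.05). The prior added 5.38 degrees of freedom to 2. The SE given are those of limma after moderation, and not the spread of a probe set alone. For probe sets not kept, as for Ucp1, Cidea, Lep and Cidec, they come from the fit without a filter. Of several probe sets for 1 gene, the brightest on average represents it. The fit was run on simulated data with independent noise drawn from its own model. That run could not check whether the model holds for these arrays. Alternatives were other scalings, a pseudocount, other filters and variance models, a replicate block, leaving out each array, leaving out suffixed probe sets and averaging probe sets. Raising dim signals to 444 units was added after seeing the data.

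The members and gene lists were chosen with earlier results of these data known. Genes named from a list are those called, or up to 4 of smallest p. Ppard, Ppargc1a, Fabp4, Pparg, Sln, Adipor1, Adipor2 and Lepr were always reported. Other list genes named were added after their values were seen. Promoter sequences are RefSeq's for GRCm38.p6.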

Additional observations from a re-analysis of the deposited data

How the results depend on the processing

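The count of called probe sets, 68 as reported, was 116 with median centring (48 higher and 68 lower, against 38 and 30), 21 without the intensity trend and 36 to 159 when each array was left out, and 8 of 14 alternatives kept it within 1.5 times. The replicate block gave 377 called probe sets, Adipoq among them, and 16 called genes in the pathway lists, against 4. Replicate 1 of both groups deviated together with a correlation of 0.28 over the kept probe sets, but the labels give no shared litter, batch or day. With each array left out, 3 to 10 genes of the pathway lists were called. The median of the uncoupling and brown fat genes was 1.85 to 2.50 with each array left out and 0.0047 with dim signals raised, which was tried only after the data had been seen. The median of the white fat genes ran from -0.020 to 0.85 with each array left out. Ucp1, Cidea, Adipoq and Retn stayed positive in all 15 alternatives, with a lowest Ucp1 value of 0.0047. Ucp3 was negative in 14 of 15, all but the 0.11 without non-transgenic replicate 1. Other filters, other variance models and the replicate block cannot change a log2 difference. Leaving out suffixed probe sets left these genes as they were. Those settings are therefore no check of the sign. Median centring moved the median difference of all probe sets to -0.048, against 0.058 as deposited. An exact permutation test of 2 arrays against 2 cannot go below p = 0.333. Dim signals limit Ucp1, Cidea, Lep and Cidec, whose presence above background was not tested.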
